A study of Mus musculus with 5 samples.

Results

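The enzymes that build triglyceride from glycerol 3-phosphate were examined in tibialis anterior (TA) muscle, a fast-twitch muscle of the lower leg, as messenger RNA. They were picked as a list of gene names, with earlier results of these data known: Gpam, Agpat1, Agpat2, Agpat3, Lpin1, Lpin2, Dgat1 and Dgat2, 8 of the 17015 genes in the deposited expression table. All 8 were in the table and all 8 passed the minimum level set for testing, a mean of 0.5 FPKM (fragments counted per kilobase of a transcript and per unit of library size), which 12148 genes passed. RNA from 8-week-old sedentary male mice was compared between 3 WT control libraries (labelled Ctrl) and 2 skmNrip1-/- libraries (labelled Nrip1KO). The skmNrip1-/- mice carry Nrip1 fl/fl alleles, made on C57BL/6J, whose loxP sites flank exon 4, and a Cre transgene driven by the myogenin promoter, which is active in the skeletal muscle lineage. The Cre mice were C57BL/6JN, and the controls were littermates without Cre from the Nrip1 fl/fl breeding, so floxed alleles may be present in both groups. The legend of this experiment names more skmNrip1-/- mice than the table used here has libraries. Values are given below in the order of the replicate numbers.

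Triglyceride, the storage form of fatty acids, is assembled on the endoplasmic reticulum and outer mitochondrial membrane in a fixed order of reactions. Glycerol-3-phosphate acyltransferases (GPATs, here Gpam) add the first fatty acid, and 1-acylglycerol-3-phosphate acyltransferases (AGPATs) add the second to give phosphatidate. Lipins remove the phosphate to give diacylglycerol, and diacylglycerol acyltransferases (DGATs) add the third fatty acid, the only step that commits the molecule to triglyceride. Phosphatidate and diacylglycerol are also the precursors of membrane phospholipids, so the earlier reactions serve both products. Muscle fibers keep triglyceride in droplets beside mitochondria and draw on it during sustained work. Nrip1 encodes RIP140, a corepressor of nuclear receptors that control genes of fatty acid and energy metabolism.

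The level of the targeted gene was read first. The Nrip1 level was 4.64, 7.69 and 6.55 FPKM in WT control and 25.3 and 22.5 FPKM in the libraries labelled skmNrip1-/-, a rise that was called (log2 fold change 1.94, SE 0.21, adjusted p = 0.0261 from limma). A lower level was thus not seen in the libraries labelled as knockout. The table holds 1 value per gene, so fragments of the deleted exon 4 cannot be separated. By itself this level cannot decide whether the labels are right. Every direction below therefore rests on the labels, and the second group is named as the libraries labelled skmNrip1-/-. Replicates are separate libraries in the labels, nothing there says that each came from its own mouse, and p-values measure the spread between these libraries. The sums of FPKM per library ran from 969144 to 1288038 and the depth relative to WT control replicate 1 from 0.824 to 1.12. This depth was read from the lowest cluster of FPKM times length among genes with 1 transcript. The cluster held 24 to 50 genes per library and was assumed to be 1 fragment per gene. Absolute depth is unknown, so no counting intervals are given. Skeletal muscle marker genes, such as Acta1 and Ckm, were abundant, with the FPKM sum of 8 of them at 80926 to 107053 in WT control and 74129 to 76484 in the libraries labelled skmNrip1-/-. The mtDNA-encoded share of the FPKM sum was 45.4% to 50.7% in WT control and 58.6% to 60.9% in the libraries labelled skmNrip1-/-, and its part in the results below was not tested.

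Regulatory sequence is shown for both lipin genes, because Lpin1 and Lpin2 encode enzymes of the same reaction and their differences between the groups had opposite signs. RefSeq holds promoter entries (250 bases before to 50 bases after a transcript start, GRCm38.p6) for 6 of the 8 genes, 10 entries in all, and none for Dgat1 or Dgat2. Each entry was searched on both strands for 5 motifs. These were the nuclear receptor half-site AGGTCA, the estrogen-related receptor element TCAAGGTCA and the direct repeat AGGTCANAGGTCA, both of which contain that half-site, the E-box CACGTG and the sterol regulatory element TCACNCCAC. The first sequence is chr12:16610917-16611216 on the minus strand, and its capitals mark a half-site whose first base lies 74 bases before the Lpin1 start. The second is chr17:71183282-71183581 on the plus strand, the first of 3 Lpin2 entries, and its capitals mark an E-box beginning 9 bases before the start.
Lpin1: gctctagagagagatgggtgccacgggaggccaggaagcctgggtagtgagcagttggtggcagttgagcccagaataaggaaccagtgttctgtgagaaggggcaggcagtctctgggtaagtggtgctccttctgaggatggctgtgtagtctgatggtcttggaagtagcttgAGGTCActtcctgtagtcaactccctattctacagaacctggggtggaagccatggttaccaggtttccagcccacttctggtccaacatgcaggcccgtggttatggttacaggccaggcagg
Lpin2: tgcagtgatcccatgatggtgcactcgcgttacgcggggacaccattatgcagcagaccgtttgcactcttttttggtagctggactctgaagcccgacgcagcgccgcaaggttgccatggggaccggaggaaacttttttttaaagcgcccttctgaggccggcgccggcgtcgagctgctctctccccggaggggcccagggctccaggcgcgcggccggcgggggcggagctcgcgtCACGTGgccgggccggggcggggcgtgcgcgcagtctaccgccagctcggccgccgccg
Across all 32851 promoter entries, 16.3% held the half-site and 7.15% the E-box, so a match is common. The longer motifs were in 0.423% (estrogen-related receptor element), 0.0396% (direct repeat) and 1.24% (sterol regulatory element) of all entries and in none of the 10 entries of these genes. Half-sites also lay 35 bases before the start in 1 of 2 Agpat1 entries, on the opposite strand, and 196 bases before the start in 1 of 2 Gpam entries, where both distances are to the first base of the match. The 4 entries of Agpat2, Agpat3 and the other Lpin2 starts held no match.

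None of the 8 enzymes was called higher or lower in the libraries labelled skmNrip1-/- (limma with Benjamini-Hochberg adjustment, at a threshold of 0.05 together with a 1.2-fold difference). With the same rule 0.37% of all genes tested were called higher and 0.0823% lower. Before adjustment, 3 of the 8 enzymes had a p of 0.05 or less with a higher level (Dgat2, Agpat2 and Agpat3) and 1 with a lower level (Lpin2), against 6.57% and 5.33% of all genes. The libraries of the 2 groups did not overlap for 5 of them. Dgat2, Agpat2, Agpat3 and Lpin1 were higher in both libraries labelled skmNrip1-/-, where 15.8% of all genes had that order, and Lpin2 was lower in both, where 14.4% did. Gpam, Agpat1 and Dgat1 overlapped. The median log2 fold change of the 8 was 0.29, and that of all genes tested was -0.00054. After rescaling each library to the same sum (TPM), these medians were -0.011 and -0.29. Without WT control replicate 1 the median of the 8 was 0.15. The median size of the change, regardless of sign, was 0.44 for the 8 and 0.15 for all genes.

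**Figure D1:**
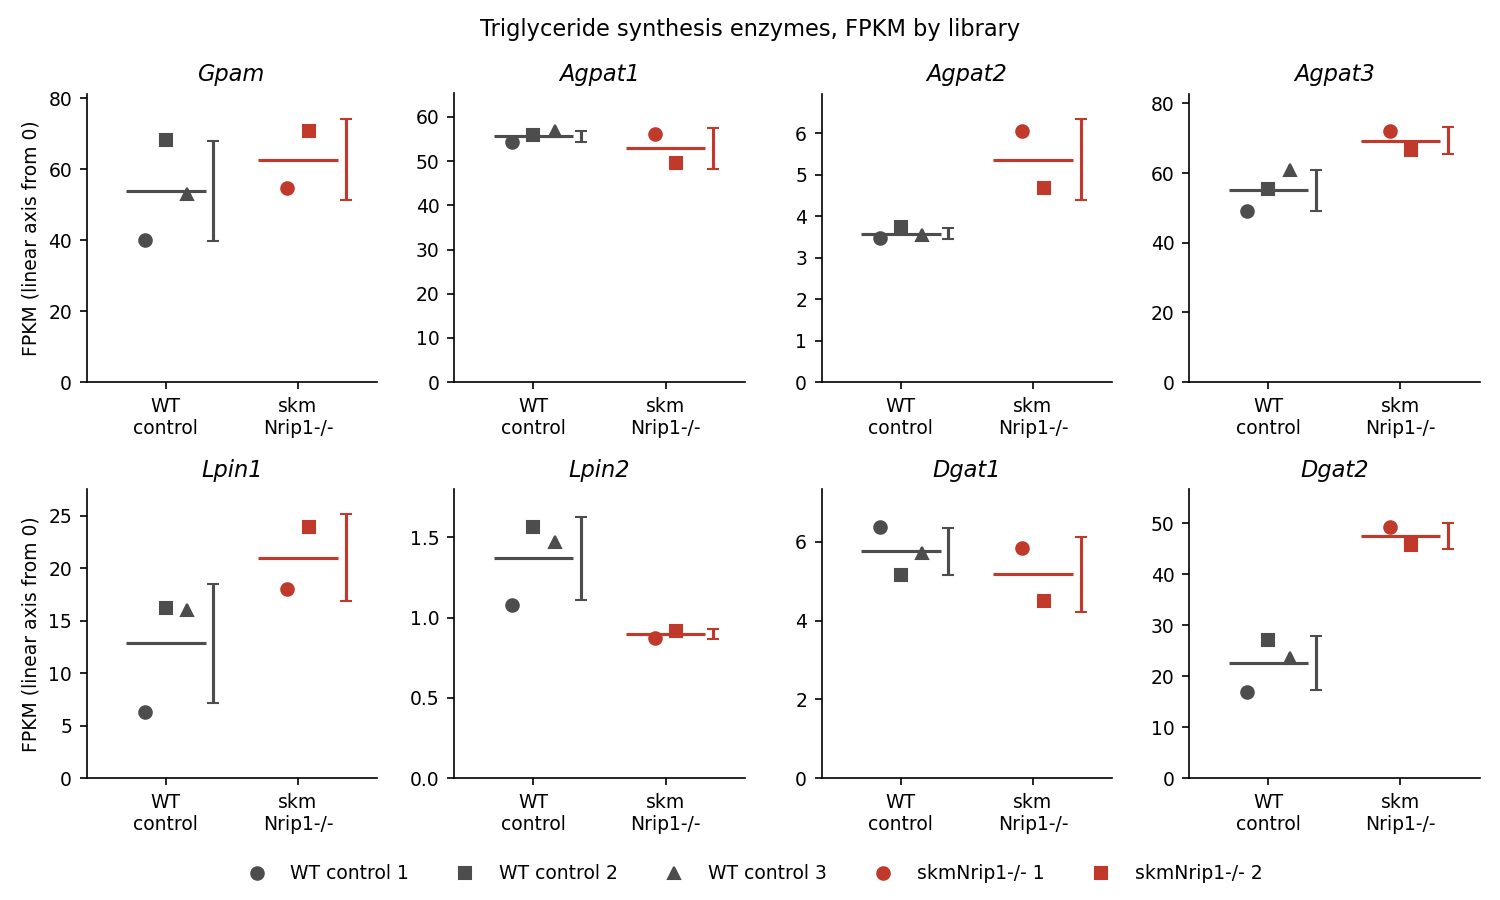
FPKM of each enzyme (y axes, linear, from 0, 1 scale per panel) in the 3 WT control libraries (gray) and the 2 libraries labelled skmNrip1-/- (red); points are libraries, with shape for the replicate number, horizontal lines are group means and the bar beside each group is 1 SD. The red points lie above all gray points for Dgat2, Agpat2, Agpat3 and Lpin1, below them for Lpin2, and for Gpam, Agpat1 and Dgat1 1 red point lies within the gray range and 1 outside it.

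Gpam, on chromosome 19 (55067268 to 55127238, minus strand, GRCm38), encodes the GPAT of the outer mitochondrial membrane. Its level was 40.1, 68.3 and 53.1 FPKM in WT control and 54.7 and 70.8 FPKM in the libraries labelled skmNrip1-/-. The groups overlapped, and the lowest value was that of WT control replicate 1. The log2 fold change was 0.24 (SE 0.23, 95% interval -0.32 to 0.80, adjusted p = 0.756 from limma). Without WT control replicate 1 it was 0.047, and after rescaling to TPM it was -0.057, where the median of all genes shifted to -0.29. Gpam made up 73.4% to 78.7% of the summed FPKM of the 3 GPAT genes in the table (Gpam, Gpat3 and Gpat4) in every library. Gpat4, which encodes an endoplasmic reticulum GPAT, supplied 16.3% to 24.1% and Gpat3 2.47% to 5.56%.

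Agpat1 and Agpat3 were the leading AGPAT genes of this muscle. Agpat1 (chromosome 17, 34604262 to 34613449, plus strand), a widely expressed AGPAT, was at 54.3, 55.8 and 56.8 FPKM in WT control and at 56.2 and 49.6 FPKM in the libraries labelled skmNrip1-/-. These values spanned little in WT control, where the highest was 1.05 times the lowest, and the groups overlapped. The log2 fold change of Agpat1 was -0.07 (SE 0.10, 95% interval -0.32 to 0.17, adjusted p = 0.839 from limma).

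Agpat3 (chromosome 10, 78269178 to 78352489, minus strand), an AGPAT of the endoplasmic reticulum and Golgi, was at 49.1, 55.4 and 60.9 FPKM in WT control and at 72.0 and 66.6 FPKM in the libraries labelled skmNrip1-/-. Both of the latter lay above every WT control library. The difference was 0.33 on the log2 scale (SE 0.12, 95% interval 0.04 to 0.63, adjusted p = 0.361 from limma).

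Agpat2 (chromosome 2, 26593057 to 26604417, minus strand) encodes the AGPAT whose loss causes congenital lipodystrophy, and its level here was far below that of Agpat1 and Agpat3. It was at 3.47, 3.74 and 3.54 FPKM in WT control, a narrow range, and at 6.05 and 4.67 FPKM in the libraries labelled skmNrip1-/-. Both of these lay above WT control, and they were farther from each other than the WT control libraries were. The log2 fold change was 0.56 (SE 0.15, 95% interval 0.20 to 0.91, adjusted p = 0.241 from limma). Agpat2 overlaps Egfl7, and Agpat1 overlaps Egfl8, each on the other strand, and whether the quantification used strand is not stated, so fragments of these pairs may not be told apart.

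The makeup of the AGPAT step differed between the groups in every library. Agpat1 supplied 44.7%, 42.6% and 41.6% of the summed FPKM of 6 AGPAT genes (Agpat1 to Agpat5 and Lclat1) in WT control and 36.5% and 35.8% in the libraries labelled skmNrip1-/-. Agpat3 supplied 40.5%, 42.2% and 44.6% in WT control and 46.8% and 48.0% in the others. Agpat1 led in 2 of the 3 WT control libraries, and Agpat3 led in the remaining one and in both of the libraries labelled skmNrip1-/-. Lclat1, which encodes an acyltransferase also known to act on lysocardiolipin, held 6.09% to 6.71% in WT control and 8.55% to 8.58% in the libraries labelled skmNrip1-/-. The summed FPKM of the 6 genes was 121, 131 and 137 in WT control and 154 and 139 in the libraries labelled skmNrip1-/-. Sums and shares of a reaction are descriptions and were not tested.

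**Figure D2:**
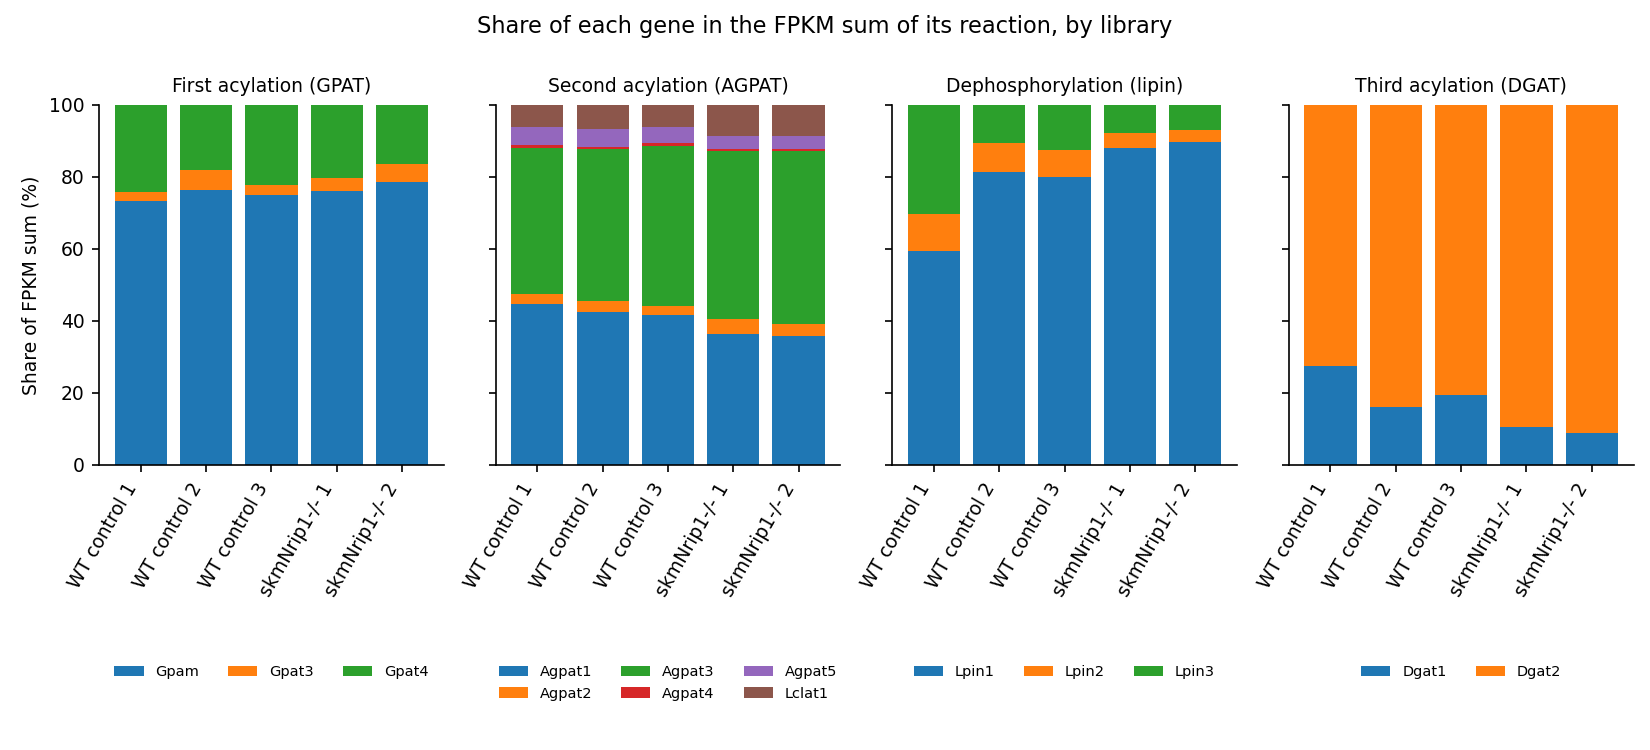
Stacked bars of the share (%, y axis) of each gene in the summed FPKM of its reaction, 1 bar per library (x axis), for the 4 reactions of the pathway. Gpam held 73.4% to 78.7% of the GPAT sum throughout, and the Dgat1 share was 15.99% to 27.4% in WT control against 8.98% to 10.6% in the libraries labelled skmNrip1-/-.

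Lpin1 (chromosome 12, 16535669 to 16610966, minus strand) encodes the main phosphatidate phosphatase of muscle, a protein that can also act in the nucleus as a coactivator of PPARα. Its level was 6.32, 16.2 and 15.97 FPKM in WT control and 18.1 and 23.9 FPKM in the libraries labelled skmNrip1-/-. Both of the latter exceeded every WT control library, but WT control replicate 1 stood apart, with the other WT control values 2.56 times higher at most. The log2 fold change was 0.81 (SE 0.41, 95% interval -0.17 to 1.80, adjusted p = 0.509 from limma), and without WT control replicate 1 it was 0.37.

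Among the WT control libraries, replicate 1 was also lowest in Gpam, Agpat1, Agpat2, Agpat3, Lpin2 and Dgat2, and highest in Dgat1. It was the lowest WT control library in 4452 of the 12148 genes tested, against 4104 for replicate 2 and 3616 for replicate 3. Some genes of fuel use were also lowest in WT control replicate 1. Pdk4, a kinase that limits pyruvate oxidation and is induced by fasting, was at 78.2 FPKM there, against 255 and 185 FPKM in the other WT control libraries and 272 and 345 FPKM in the libraries labelled skmNrip1-/-. Ppara, which encodes PPARα, was at 3.0 FPKM there, 8.36 and 7.22 FPKM in the other WT control libraries and 7.23 and 7.81 FPKM in the libraries labelled skmNrip1-/-. Per1 and Rxrg, of the lists below that hold Pdk4 and Ppara, were instead highest there. The median log2 difference from the WT control mean was -0.10 there for the genes responding to feeding or glucocorticoids. It was -0.076 and 0.18 in the other WT control libraries. The list is mixed, so its median says little of single genes. Pdk4 and Ucp3 were lowest in replicate 1 among the WT control libraries, and Per1 and Cdkn1a were highest there. For the nuclear receptors and coactivators the median difference was -0.34 in replicate 1 and 0.25 and 0.050 in the other WT control libraries. The part that the state of WT control replicate 1 had in the differences of the enzymes was not tested beyond leaving it out.

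Lpin2 (chromosome 17, 71182560 to 71249817, plus strand), whose mutation in humans causes an inflammatory bone disease, had the lowest level of the 8 enzymes. It was at 1.08, 1.56 and 1.47 FPKM in WT control and at 0.873 and 0.917 FPKM in the libraries labelled skmNrip1-/-, below every WT control library. The difference was -0.55 on the log2 scale (SE 0.22, 95% interval -1.08 to -0.02, adjusted p = 0.404 from limma), and at this level the added 0.1 FPKM makes it an understatement. Within the lipin sum, Lpin1 supplied 59.5%, 81.5% and 80.1% in WT control and 88.0% and 89.7% in the libraries labelled skmNrip1-/-. Lpin3, the remaining lipin gene, supplied 30.3%, 10.7% and 12.5% in WT control and 7.74% and 6.85% in the others. The lipin sum was 10.6, 19.9 and 19.9 FPKM in WT control and 20.5 and 26.6 FPKM in the libraries labelled skmNrip1-/-.

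Dgat2 had the largest difference of the 8 enzymes in this fit. It lies on chromosome 7 (99153658 to 99182719, minus strand) and encodes a DGAT that acts at the endoplasmic reticulum and at droplet surfaces, favoring newly made fatty acids. Its level was 16.9, 27.2 and 23.7 FPKM in WT control and 49.2 and 45.6 FPKM in the libraries labelled skmNrip1-/-, well above the WT control range. The group means were 22.6 ± 5.24 FPKM (SD, n = 3) and 47.4 ± 2.53 FPKM (SD, n = 2), a ratio of 2.10. The log2 fold change was 1.095 (SE 0.20, 95% interval 0.61 to 1.58, adjusted p = 0.115 from limma). Without WT control replicate 1 it was 0.90 (adjusted p = 0.0757 from limma), so the difference did not rest on that library.

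Dgat1 (chromosome 15, 76502015 to 76511953, minus strand) encodes the unrelated DGAT of the endoplasmic reticulum, which also re-esterifies fatty acids released from droplets. It was at 6.38, 5.17 and 5.73 FPKM in WT control and at 5.85 and 4.504 FPKM in the libraries labelled skmNrip1-/-. The groups overlapped, with a log2 fold change of -0.16 (SE 0.16, 95% interval -0.54 to 0.23, adjusted p = 0.776 from limma). The DGAT sum was 23.2, 32.3 and 29.4 FPKM in WT control and 55.1 and 50.2 FPKM in the libraries labelled skmNrip1-/-. Dgat2 supplied 72.6%, 84.0% and 80.5% of it in WT control and 89.4% and 91.0% in the others.

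**Figure D3:**
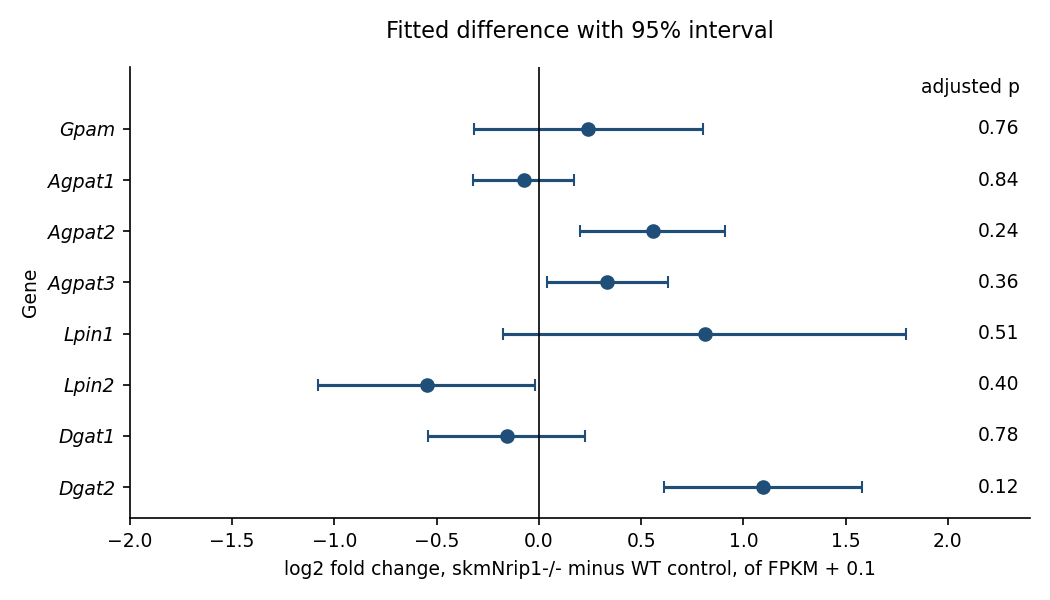
Log2 fold change of FPKM + 0.1 (x axis, libraries labelled skmNrip1-/- minus WT control) of each enzyme (y axis), with points for the limma estimate, bars for its 95% interval and the adjusted p at the right. The intervals of Dgat2, Agpat2 and Agpat3 lie above 0 and that of Lpin2 below 0, while no adjusted p is at or below 0.05.

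Ratios within a library compare enzymes of the same reaction and do not depend on how libraries were scaled, apart from the small added constant. The log2 ratio of Dgat2 to Dgat1 was 1.39, 2.37 and 2.03 in WT control and 3.05 and 3.31 in the libraries labelled skmNrip1-/-, a difference of 1.25. The log2 ratio of Lpin1 to Lpin2 was 2.45, 3.29 and 3.36 in WT control and 4.22 and 4.56 in the others, a difference of 1.36. For Agpat2 to Agpat1 it was -3.93, -3.86 and -3.97 in WT control and -3.19 and -3.38 in the others, a difference of 0.63. All 3 ratios were higher in both libraries labelled skmNrip1-/- than in every WT control library. Dgat2, Lpin1 and Agpat2 were each higher without overlap on their own. The ratios thus restate the values above and are not separate evidence. No share over other gene pairs is given here. Agpat2 supplied only 2.59% to 3.94% of the AGPAT sum, so its ratio is not the main balance of that step. For each, a two-sided exact permutation test over 10 assignments of the labels gave p = 0.1 (adjusted p = 0.1 over the 3 ratios), the smallest that 3 against 2 libraries allow.

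**Figure D4:**
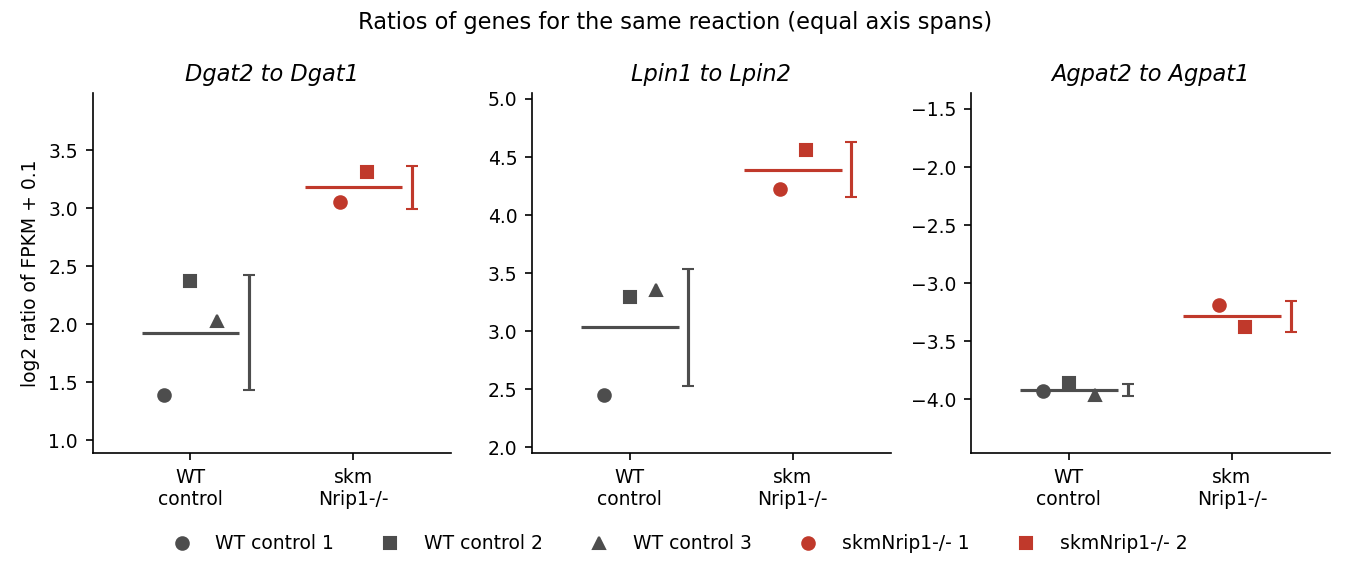
Log2 ratio of FPKM + 0.1 (y axes of equal span, not starting at 0) between genes for the same reaction, in WT control (gray) and in the libraries labelled skmNrip1-/- (red); points are libraries, lines are means and bars are 1 SD. In all 3 panels the red points lie above every gray point, with differences of the means of 1.25, 1.36 and 0.63.

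By FPKM, which is scaled to length and so can be set beside that of other genes, the enzymes fell in a similar order in both groups. In WT control the means were 55.6 ± 1.26 FPKM for Agpat1, 55.1 ± 5.86 for Agpat3, 53.85 ± 14.1 for Gpam, 22.6 ± 5.24 for Dgat2, 12.8 ± 5.64 for Lpin1, 5.76 ± 0.603 for Dgat1, 3.58 ± 0.142 for Agpat2 and 1.37 ± 0.258 for Lpin2 (SD, n = 3). The libraries of Agpat1, Agpat3 and Gpam overlapped, as did those of Lpin1 and Dgat1, and the other neighbors in this order did not. In the libraries labelled skmNrip1-/- the means were 69.3 ± 3.85 FPKM for Agpat3, 62.7 ± 11.4 for Gpam, 52.9 ± 4.62 for Agpat1, 47.4 ± 2.53 for Dgat2, 20.97 ± 4.13 for Lpin1, 5.36 ± 0.976 for Agpat2, 5.18 ± 0.953 for Dgat1 and 0.895 ± 0.0313 for Lpin2 (SD, n = 2). There Agpat3 and Gpam overlapped, Gpam and Agpat1 overlapped, and Agpat2 and Dgat1 overlapped. The lowest Agpat1 value, 49.6 FPKM, was just above the highest Dgat2 value, 49.2 FPKM, whereas in WT control the lowest Gpam value, 40.1 FPKM, was the one next above the highest Dgat2 value, 27.2 FPKM.

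The genes whose profile over the 5 libraries was nearest to that of Dgat2 were Slc41a1, a magnesium transporter gene, Ermp1, a metallopeptidase gene, and Grb14, which encodes an adaptor that binds the insulin receptor. Their distances, the root of the summed squared differences of log2(FPKM + 0.1) centered on each gene's mean, were 0.102, 0.166 and 0.201, and their log2 fold changes were 1.04, 1.21 and 1.12. None of the 3 was called (adjusted p = 0.141, 0.116 and 0.0999 from limma). Slc41a1 was at 20.3, 34.0 and 29.2 FPKM in WT control and at 56.2 and 55.8 FPKM in the libraries labelled skmNrip1-/-. The 3 genes nearest to Agpat1, the enzyme with the largest adjusted p, were Ddx54, Foxk2 and Tm9sf1, at distances of 0.0423, 0.0445 and 0.0449.

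Around these enzymes, 8 further lists of the pathway and its regulators held 96 gene names, with Gk listed also as Gyk. Of the names, 93 were in the table and 87 were tested. Of these, 2 were called higher, Cds1 and Nrip1, and 1 was called lower, Srebf1, where 0.37% and 0.0823% of all genes were. Before adjustment, 17 had a p of 0.05 or less with a higher level and 8 with a lower level, against 6.57% and 5.33% of all genes, and the counts for single lists below stand beside the same shares. The medians of the lists moved with the scaling and with single libraries. Rescaled to TPM, the 9 list medians, the 8 enzymes included, ran from -0.50 to -0.011, and that of all genes was -0.29. Without WT control replicate 1 the median was 0.0057 for the nuclear receptors and coactivators, -0.0021 for the phospholipid branches, -0.087 for the acyl-CoA supply and -0.031 for the droplet coats and lipases.

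Among the other enzymes of the pathway, 8 of 14 listed genes were tested, none was called, 1 was higher and 1 lower at an unadjusted p of 0.05 or less, and the median log2 fold change was -0.12. Lclat1 had the largest, 0.60 (7.58, 8.79 and 8.31 FPKM against 13.2 and 11.9 FPKM, adjusted p = 0.129 from limma), and Lpin3 the smallest, -0.57 (adjusted p = 0.353 from limma). Gpat2 and Awat1 were not analysed here. Mogat1 and Mogat2, which make diacylglycerol from monoacylglycerol chiefly in gut and liver, were below the FPKM minimum. For the supply of glycerol 3-phosphate, 5 genes were tested and none was called, with 2 higher at an unadjusted p of 0.05 or less. The median of that list was 0.13, from Gk, glycerol kinase, at 0.59 (0.67, 0.85 and 0.80 FPKM against 1.11 and 1.32 FPKM, adjusted p = 0.359 from limma) to Aqp7, a glycerol channel gene, at -0.02.

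Cds1 was called higher on the branch that leads away from triglyceride. It encodes a CDP-diacylglycerol synthase, which draws phosphatidate toward phosphatidylinositol and cardiolipin. Cds1 was at 0.63, 0.81 and 0.75 FPKM in WT control and at 3.22 and 2.65 FPKM in the libraries labelled skmNrip1-/-, with no overlap. Its log2 fold change was 1.87 (SE 0.20, adjusted p = 0.0246 from limma). The other 13 tested genes of the phospholipid branches were not called, and the list had a median of 0.10. Chka, a choline kinase gene, had the smallest value, -0.80 (2.52, 1.64 and 2.30 FPKM against 1.28 and 1.08 FPKM, adjusted p = 0.250 from limma).

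For the supply of fatty acyl-CoA, 13 genes were tested and none was called, with 3 higher and 2 lower at an unadjusted p of 0.05 or less and a median of 0.00314. Cd36, a fatty acid uptake gene, was at 90.1, 149 and 101 FPKM in WT control and at 179 and 185 FPKM in the libraries labelled skmNrip1-/-, 0.71 on the log2 scale (adjusted p = 0.279 from limma). Without WT control replicate 2 it was 0.93 and was called (adjusted p = 0.0456 from limma), the only alternative fit that called it. Without WT control replicate 3 it was 0.65 (adjusted p = 0.579 from limma). Acsl3, an acyl-CoA synthetase gene tied to droplet formation, was at 5.45, 3.85 and 4.17 FPKM in WT control and at 2.06 and 2.6 FPKM in the others, -0.91 (adjusted p = 0.154 from limma). After rescaling to TPM it was -1.19 and was called (adjusted p = 0.0464 from limma), the only alternative fit that called it. The median of all genes was -0.29 in that fit. Without WT control replicate 3, Acsl3 was -0.96 (adjusted p = 0.386 from limma). Both Cd36 and Acsl3 were without overlap between the groups.

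Of the droplet coats and triglyceride lipases, 13 genes were tested and none was called, with 4 higher and 0 lower at an unadjusted p of 0.05 or less and a median of 0.01. Plin5, the droplet coat of oxidative tissues that ties droplets to mitochondria, was at 8.15, 14.03 and 7.65 FPKM in WT control and at 24.7 and 27.3 FPKM in the libraries labelled skmNrip1-/-, both above every WT control library. Its log2 fold change was 1.43 (SE 0.26, adjusted p = 0.111 from limma). Without WT control replicate 2 it was 1.71 and was called (adjusted p = 0.0165 from limma), the only alternative fit that called it. Without WT control replicate 3 it was 1.27 (adjusted p = 0.347 from limma). Bscl2, which encodes seipin, had the smallest value of this list, -0.31.

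Srebf1 was called lower. It encodes SREBP-1, a transcription factor that activates genes of fatty acid and triglyceride synthesis. Srebf1 was at 16.3, 10.9 and 15.7 FPKM in WT control and at 4.51 and 5.08 FPKM in the libraries labelled skmNrip1-/-, far below the WT control range. Its log2 fold change was -1.53 (SE 0.19, adjusted p = 0.0394 from limma). The other 9 genes of its list, lipin phosphatase and endoplasmic reticulum lipid regulators, were not called and ran up to 0.13 for Mlx, with a list median of -0.03. Of the genes that make or desaturate fatty acids, Fasn (-0.16), Acaca (0.003) and Scd1 (0.20) overlapped between the groups. Scd2 was lower without overlap and was not called (-0.45, adjusted p = 0.347 from limma). A link of these genes to the Srebf1 level was not tested. In the list of 12 nuclear receptors and coactivators, only Nrip1 was called, the median was 0.22, and Rxrg, a retinoid X receptor gene, had the smallest value, -0.41.

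The calls on these 3 genes depended on the libraries and settings, while the size of the differences changed less. Cds1 and Srebf1 were each called without WT control replicate 2 and lost the call without any other library, with adjusted p-values of 0.0592 to 0.211 for Cds1 and 0.0937 to 0.242 for Srebf1 from limma. Nrip1 lost its call without WT control replicate 3 or without either library labelled skmNrip1-/-, with adjusted p-values of 0.114 to 0.189 from limma. Over all single libraries left out, the log2 fold changes ran from 1.73 to 2.01 for Cds1, from 1.74 to 2.09 for Nrip1 and from -1.72 to -1.43 for Srebf1. Srebf1 also lost its call with no FPKM minimum (adjusted p = 0.0557 from limma) and without the intensity trend (adjusted p = 0.0943), and Nrip1 without the trend (adjusted p = 0.0769).

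**Figure D5:**
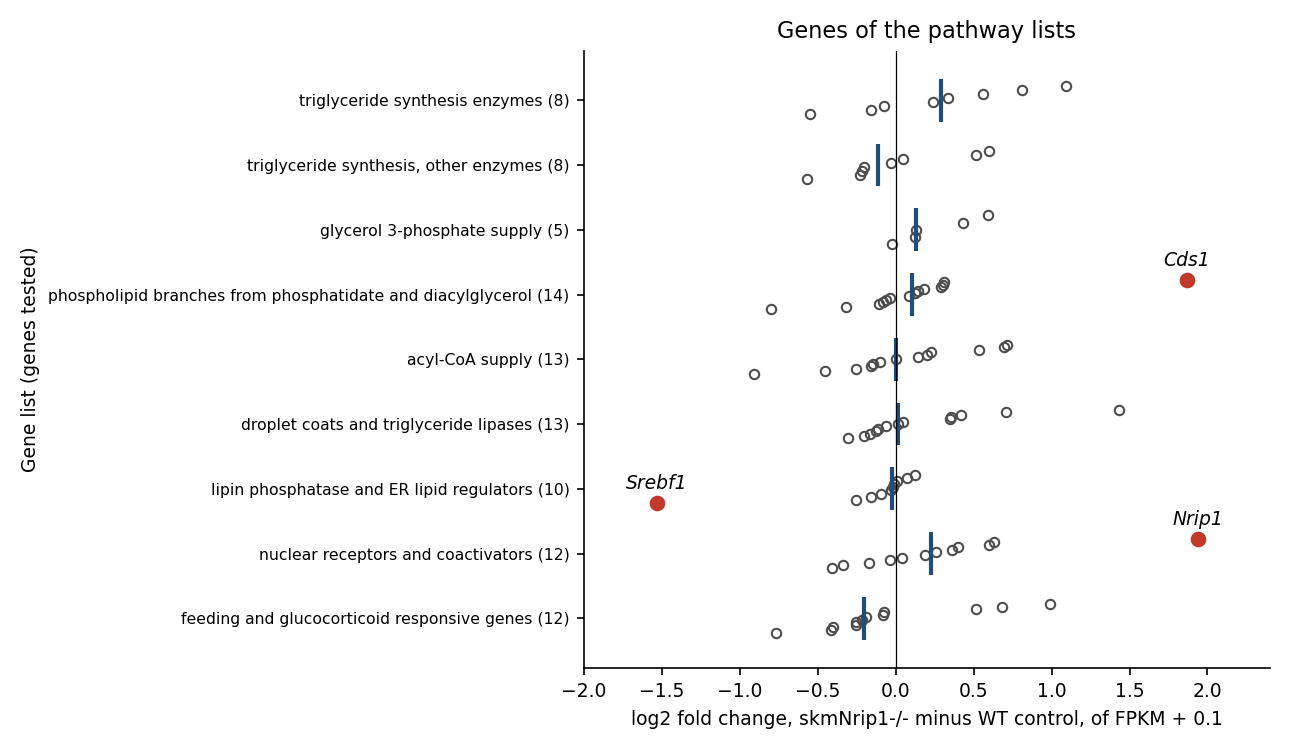
Log2 fold change of FPKM + 0.1 (x axis, libraries labelled skmNrip1-/- minus WT control) of every tested gene in the enzyme list and the 8 further lists (y axis, number of genes tested in parentheses); open circles are genes not called, filled circles are called genes and bars are list medians. The filled circles are Cds1 at 1.87, Nrip1 at 1.94 and Srebf1 at -1.53, and the list medians lie between -0.20 and 0.29.

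TA tissue also holds cells that make triglyceride in quantity, so marker genes were set beside the enzymes. In bulk RNA, fewer cells of a type and less RNA per cell cannot be told apart. The FPKM sum of 8 adipocyte markers was 134 to 202 in WT control and 158 to 163 in the libraries labelled skmNrip1-/-. None of the 5 that passed the minimum was called. This sum was mostly Fabp4, at 187, 150 and 120 FPKM in WT control and 145 and 150 FPKM in the others. The sum therefore says little of the other adipocyte markers. Adipoq, the defining adipocyte hormone gene, was at 1.35, 0.63 and 1.33 FPKM in WT control and at 1.03 and 1.16 FPKM in the others, and Cfd at 10.9, 6.07 and 10.1 FPKM against 9.77 and 9.64 FPKM. Adipocyte markers were thus at overlapping levels in both groups, and no adipocyte marker was listed at 0 in every library. The FPKM sums of 5 blood markers (511 to 764 against 827 to 996), 6 slow muscle markers (110 to 307 against 79.6 to 90.1) and the 8 skeletal muscle markers given above did not overlap between the groups. The slow muscle sum was mostly Myl3, and without it the sum of the other 5 was 20.3, 22.02 and 21.3 FPKM in WT control and 25.4 and 18.8 FPKM in the libraries labelled skmNrip1-/-, with overlap. All 5 blood markers were higher, with a median log2 fold change of 0.51. Of them, 3 had an unadjusted p of 0.05 or less (limma) and 4 did not overlap, against 6.57% and 15.8% of all genes. Of the 8 skeletal muscle markers, 4 were lower without overlap, against 14.4% of all genes, and 0 had an unadjusted p of 0.05 or less. None of these markers was called, and their part in the enzyme differences was not tested. The sums of endothelial, macrophage, fibroblast, and nerve and Schwann markers overlapped.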

How the data were processed

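TA RNA was sequenced by the authors as 150-bp read pairs from NEBNext Ultra libraries, quantified with Salmon 1.10.2 on mm10 and brought to gene level by tximport. The values deposited by the authors are FPKM, 1 per gene and library. How FPKM were computed and the annotation release are not given in the sources used here, and relative to the geometric mean over libraries all 5 had a median ratio of 1.00, so they already shared a scale. The 2 columns of the authors' DESeq2 1.44.0 comparison were not used. Samples were grouped by GEO's labels. Differences were tested with limma 3.58.1 (R 4.3.3; lmFit, eBayes with trend) on log2(FPKM + 0.1), without covariates, with all 5 libraries; p-values were adjusted by Benjamini-Hochberg across 12148 genes whose mean reached 0.5 FPKM. On this scale fold changes of low genes are understated. Ratios used exact permutation. GENCODE M21 (GRCm38) gave positions, and 16996 gene IDs matched it. Promoters came from RefSeq. Tables and figures used Python 3.11.15, pandas 2.3.3, numpy 2.4.6, scipy 1.17.1 and matplotlib 3.10.9.

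The genes named are the 8 enzymes, in each pathway list the called genes and those with the largest and smallest change, and the 3 genes nearest in profile to the enzymes with the smallest and largest adjusted p. Named beyond this rule were Nrip1, Cds2, Fasn, Acaca, Scd1, Scd2 and genes that describe WT control replicate 1, the share of a reaction or marker levels. Enzymes and lists were chosen with earlier results of these data known. Alternatives were other pseudocounts, FPKM minima, scalings and eBayes settings, a replicate block, a stricter adjusted p of 0.01 and leaving out each library.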

Additional observations from a re-analysis of the deposited data

How the results depend on the processing

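None of the 8 enzymes was called under any of the 14 alternative fits or at an adjusted p of 0.01. The adjusted p of Dgat2 ran from 0.0709 (without WT control replicate 2) to 0.477, with log2 fold changes of 0.80 to 1.24. Agpat2, Agpat3, Lpin1, Lpin2 and Dgat2 kept their sign in all 14. Rescaled to TPM, Gpam was -0.057, Mlx -0.17 and the median of the 8 enzymes -0.01, against -0.29 for all genes, and 30 genes were called higher and 63 lower instead of 45 and 10. Without skmNrip1-/- replicate 2, Agpat1 was 0.014 and Dgat1 0.028. Leaving out single libraries, Agpat1 ran from -0.16 to 0.014, Dgat1 from -0.34 to 0.028 and Aqp7 from -0.25 to 0.18. Calls over all genes then ran from 6 to 55 higher and from 3 to 16 lower, and calls in the pathway lists from 0 to 5 instead of 3. With 1 library labelled skmNrip1-/- left, 8 and 6 genes were called higher, and that library is assumed to vary like WT control. Without the eBayes trend, 22 genes were called higher, 3 lower and 1 in the pathway lists. At an adjusted p of 0.01 these counts were 14, 3 and 0. The causes were not tested.

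With the replicate number as a block, 18 genes were called higher, 4 lower and 0 in the pathway lists. The groups share only 2 numbers, from different mice, and deviations of same-numbered libraries correlated at 0.0647 and 0.0952 over genes, so the libraries are not treated as pairs. Leaving out single libraries, the 3 ratio differences ran from 0.98 to 1.47 (Dgat2 to Dgat1), 1.07 to 1.53 (Lpin1 to Lpin2) and 0.54 to 0.73 (Agpat2 to Agpat1), and within the shared numbers, as a replicate block, they were 1.30, 1.52 and 0.61.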

Other observations

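Among 12 genes known to respond to feeding or glucocorticoids, none was called (limma), 1 was higher and 1 lower at an unadjusted p of 0.05 or less, and the median log2 fold change was -0.20. Without skmNrip1-/- replicate 2 that median was 0.022, without skmNrip1-/- replicate 1 it was -0.38, and after rescaling to TPM it was -0.50. Pdk4 had the largest value, 0.99 (adjusted p = 0.474 from limma), with WT control replicate 1 far below the other libraries. Cdkn1a, a cell cycle inhibitor gene also induced by glucocorticoids, had the smallest, -0.77 (adjusted p = 0.154 from limma), at 6.64, 5.97 and 6.58 FPKM in WT control and 4.36 and 3.16 FPKM in the libraries labelled skmNrip1-/-. Ucp3, a mitochondrial carrier gene induced by fasting, was at 41.9, 85.7 and 63.8 FPKM in WT control and at 98.6 and 97.7 FPKM in the others, without overlap (log2 fold change 0.68, adjusted p = 0.406 from limma). Among the slow muscle markers, Myl3, a ventricular and slow-fiber myosin light chain gene, had a log2 fold change of -1.24 and was not called. The other 5 slow markers ran from -0.20 (Tnni1) to 0.35 (Myh7) with overlapping libraries, and the list median was -0.0038.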
